A study of Mus musculus with 8 samples.

Results

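Amino acid, glucose and monocarboxylate transporters were followed on 8 arrays of mouse germinal vesicle (GV) oocytes, immature oocytes whose nucleus is still intact. The carriers were taken as every probe set, a group of array probes for 1 transcript, whose single gene symbol was an Slc1, Slc2, Slc3, Slc6, Slc7, Slc16, Slc36 or Slc38 name ending in a number. This gave 156 of 45037 non-control probe sets and 79 of 18193 genes. Slc6a20a and Slc6a20b end in a letter and were thus not included. By their labels, 4 samples were GV oocytes without treatment (untreated) and the other 4 had spent 48 h in culture with milrinone. The drug blocks the oocyte phosphodiesterase Pde3a, so that cAMP stays high and oocytes do not leave the GV stage. Both groups gave total RNA, and 15 µg of biotin-labelled cRNA was put on each single-colour array. The labels give no strain, age, drug concentration, or sample cultured without milrinone, so drug, culture and elapsed time cannot be told apart. They also do not say whether replicates came from separate animals, so p-values cover no more than the sample-to-sample spread, possibly a technical one.

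Solute carriers of these families move small nutrients across the plasma membrane and, for some, across the lysosomal membrane. An oocyte grows inside a shell of cumulus cells joined to it by gap junctions. It uses pyruvate better than glucose, takes up some neutral amino acids poorly on its own, and receives both kinds of nutrient in part from the cumulus cells. Slc38a3, for example, is known as a carrier of cumulus cells, whereas Slc6a9 carries glycine, which oocytes and early embryos use to control their volume.

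The oocyte arrays carried a core of 27 transporter genes with a probe set that had a value on all 8 arrays, among them the glycine carrier Slc6a9, the proline carrier Slc6a7, the taurine carrier Slc6a6, the glucose carrier Slc2a1, the heavy chain Slc3a2 and the lysosomal arginine carrier Slc38a9. No transporter probe set passed the test between the groups. The smallest p belonged to Slc36a1, a proton-coupled carrier of small amino acids, whose mean intensity was 172 ± 22.8 (SD, n = 4) without and 273 ± 21.6 (SD, n = 4) with milrinone. Another 15 genes had values on untreated arrays only and 3 on milrinone arrays only. Counted by probe sets these patterns made up 16% and 3.21%, beside 11.5% and 3.90% of all probe sets with 1 symbol. Of the 15 genes Slc38a5, a carrier of glutamine, histidine and asparagine, was the only one with a value on all 4 untreated arrays. The brightest probe set of the glutamine and alanine carrier Slc38a2 had 145 to 1386 on the untreated arrays and 32.8 and 63.1 on 2 milrinone arrays. Its dimmest probe set did not share this, with 68.5 on untreated 4 and 78.3 and 75.1 on milrinone 1 and 2.

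A probe set is called listed on an array that has a value for it. The deposited table leaves 48.4% to 58.7% of the cells of an array empty, by a rule that is not given in the sources used here, and an empty cell sets no bound on the signal. No fold is therefore given for a probe set listed in 1 group only. Untreated 1 stood apart. Its correlation with the other arrays had a median of 0.930, where the medians of the rest were 0.966 to 0.980, and results that rest on it are also given without it. Array weights, which give noisier arrays less influence in a fit, were 0.232 for untreated 1 and 0.346 for untreated 4. The rest had weights of 1.066 to 2.88. All 16 probe sets of 13 oocyte markers were listed on each array. Of 45 probe sets of granulosa and cumulus markers, an untreated array listed 24 to 34 and a milrinone array 11 to 18. Their summed intensity ran from 21208 to 92794 and from 2861 to 3836, with untreated 1 highest and the other untreated arrays between 21208 and 23773. Of the 21 marker genes on the array, 20 had a value on an untreated and 14 on a milrinone array. The 7 without a milrinone value were Amh, Amhr2, Fst, Npr2, Nr5a1, Star and Tnfaip6, and Amh had none on any array. Nr5a2 was listed on every array with its brightest probe set, at 1125 to 3223 untreated and 836 to 1193 with milrinone. Of the 11 marker probe sets with values on at least 3 arrays a group, 10 were lower and 1, of Cyp11a1, higher in milrinone samples. Over all 16288 probe sets with that many values, 6189 were lower and 10098 higher. Of the 11, 4 passed (limma adjusted p 0.0048 to 0.020), where 19 of the 16288 did. They belonged to Gja1 (log2 differences -4.91, -4.12 and -3.86) and Grem1 (-4.67). Without untreated 1 these differences were -4.57, -3.62, -3.50 and -4.61. The higher probe set of Cyp11a1 was dim, at 127 to 212 untreated and 181 to 226 with milrinone. The brightest Cyp11a1 probe set ran from 576 to 9664 untreated, highest on untreated 1, and lacked any milrinone value. Theca and stroma markers had 6 to 12 of 19 probe sets listed on the untreated and 1 to 2 on the milrinone arrays. Their sums were 1046 to 18546 and 16.2 to 48.9, with untreated 1 highest and the other untreated arrays between 1046 and 2609. Markers of blood, macrophage and endothelial cells had 7 to 10 and 5 to 6 of 14, with sums of 987 to 2241 and of 679 to 959. Which part these other cells had in the transporter values was not tested, and in bulk RNA fewer cells of a type and less RNA per cell cannot be told apart.

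On average the untreated arrays listed more transporter probe sets than the milrinone arrays, and the same was true of all probe sets with 1 symbol. Of the 156, untreated 1 to 4 listed 71, 63, 60 and 57 and milrinone 1 to 4 listed 51, 56, 54 and 56. The lowest untreated count lay 1 above the highest milrinone count. The mean share was 40.2% and 34.8%, beside 53.2% and 48.5% for all 34945 probe sets with 1 symbol. Of the 156 probe sets, 41 (26.3%) were listed on all 8 arrays, where the share over all probe sets with 1 symbol was 38.1%, and 62 were listed on none. Values on at least 1 untreated and no milrinone array occurred for 25 probe sets (16%), beside 11.5% of all probe sets with 1 symbol, and 7 of the 25 were listed on untreated 1 alone (4.49% of the 156, beside 4.24%). The opposite pattern occurred for 5 probe sets (3.21%, beside 3.90%).

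**Figure D1:**
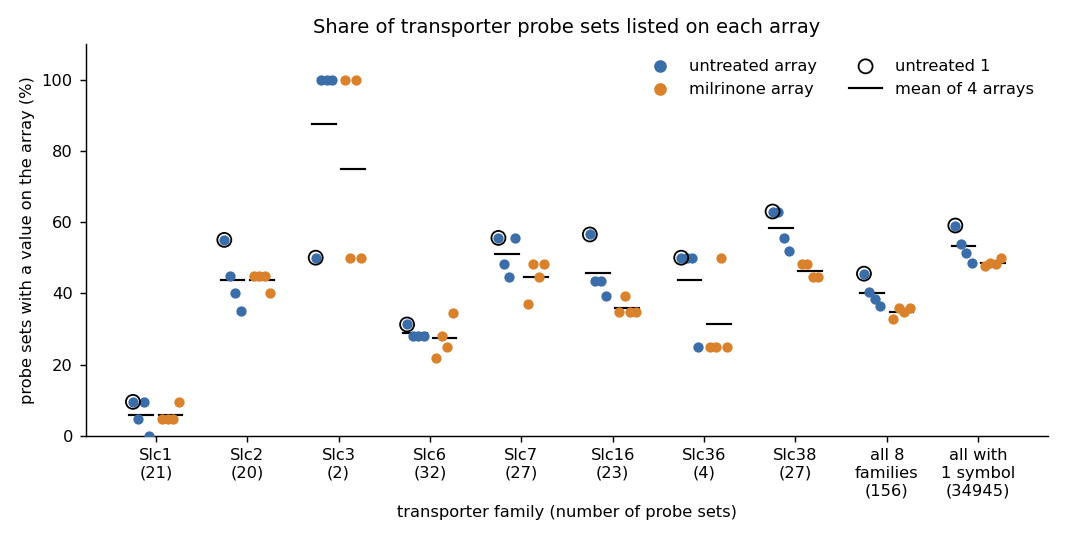
Percentage of the probe sets of each transporter family with a value on each of 4 untreated (blue) and 4 milrinone (orange) arrays, with the number of probe sets below each family name, the mean of each group as a line and untreated 1 circled. Slc38 lies at 14 to 17 of 27 probe sets for untreated and at 12 to 13 for milrinone samples, whereas the mean of Slc2 is 43.8% in both groups.

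The families differed in how much of them was listed. Slc38, the sodium-coupled neutral amino acid carriers, had 14 to 17 of 27 probe sets on the untreated and 12 to 13 on the milrinone arrays, so the groups did not overlap. All probe sets with 1 symbol ran from 48.4% to 59.0% and from 47.8% to 49.8%, which overlapped. Slc16, the monocarboxylate carriers, had 9 to 13 and 8 to 9 of 23 probe sets, and Slc7, the cationic and heteromeric amino acid carriers, had 12 to 15 and 10 to 13 of 27. Slc6, the carriers of glycine, proline, taurine and neurotransmitters, had 9 to 10 and 7 to 11 of 32. Slc2, the hexose carriers, had 7 to 11 and 8 to 9 of 20. Slc1, the glutamate and neutral amino acid carriers, was nearly empty, with 0 to 2 and 1 to 2 of 21 probe sets. These family counts are a description and were not tested.

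Of the 9 Slc38 genes, 5 had a probe set listed on all 8 arrays, 2 were listed on some arrays of both groups, Slc38a5 on untreated arrays only, and Slc38a4 on none. Slc38a5 had intensities of 682, 133, 156 and 130 on untreated 1 to 4 and no value on any milrinone array. Untreated 1 lay far above the other 3, which were close together. Slc38a5 was 1 of only 2 transporter probe sets (1.28%, beside 1.17% of all probe sets with 1 symbol) that every untreated array and no more than 1 milrinone array listed. The other was Slc7a4, a relative of the cationic amino acid carriers, at 75.6 to 104 on the untreated arrays and at 86.1 on milrinone 4, inside the untreated range. No transporter probe set had the opposite pattern, where the background was 0.143%.

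Slc38a2, a carrier whose synthesis is known to go up when amino acids are short, had 1386, 261, 327 and 145 on untreated 1 to 4 and 63.1 and 32.8 on milrinone 2 and 3. Every listed untreated value was above both milrinone values, but only 2 milrinone arrays had one, so the probe set was not tested. Another probe set of Slc38a2 was listed on untreated 1 alone, at 308. The dimmest one was listed on untreated 4 at 68.5 and on milrinone 1 and 2 at 78.3 and 75.1, and so did not share the pattern of the first.

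Slc38a1, a closely related carrier of glutamine and alanine, had 350, 314, 313 and 221 in untreated and 203, 146, 198 and 269 in milrinone samples with its probe set listed on all 8 arrays. Milrinone 4 lay above untreated 4, so the groups overlapped. The difference was -0.53 on the log2(intensity + 16) scale used for all differences, milrinone minus untreated (SE 0.21, limma adjusted p = 0.494), and -0.45 without untreated 1 (limma adjusted p = 0.629). A second probe set of Slc38a1 was listed on untreated 1, 2 and 4 at 520, 98.8 and 77.7 and on no milrinone array. Slc38a3, the glutamine and histidine carrier, was listed on untreated 1 and 2 at 297 and 192 and on no milrinone array with its brighter probe set, while another had 84.0 on milrinone 3 alone. With its brightest probe set each of these 4 carriers was highest on untreated 1. The dimmest probe set of Slc38a2 and the dimmer one of Slc38a3 had no value on that array. Untreated 1 also had the highest sums of granulosa markers and of theca and stroma markers, and any link was not tested. Of the 46 transporter probe sets listed on all 4 untreated arrays, untreated 1 was highest in 10 (21.7%) and lowest in 20 (43.5%), beside 23.8% and 43.7% of all non-control probe sets so listed.

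**Figure D2:**
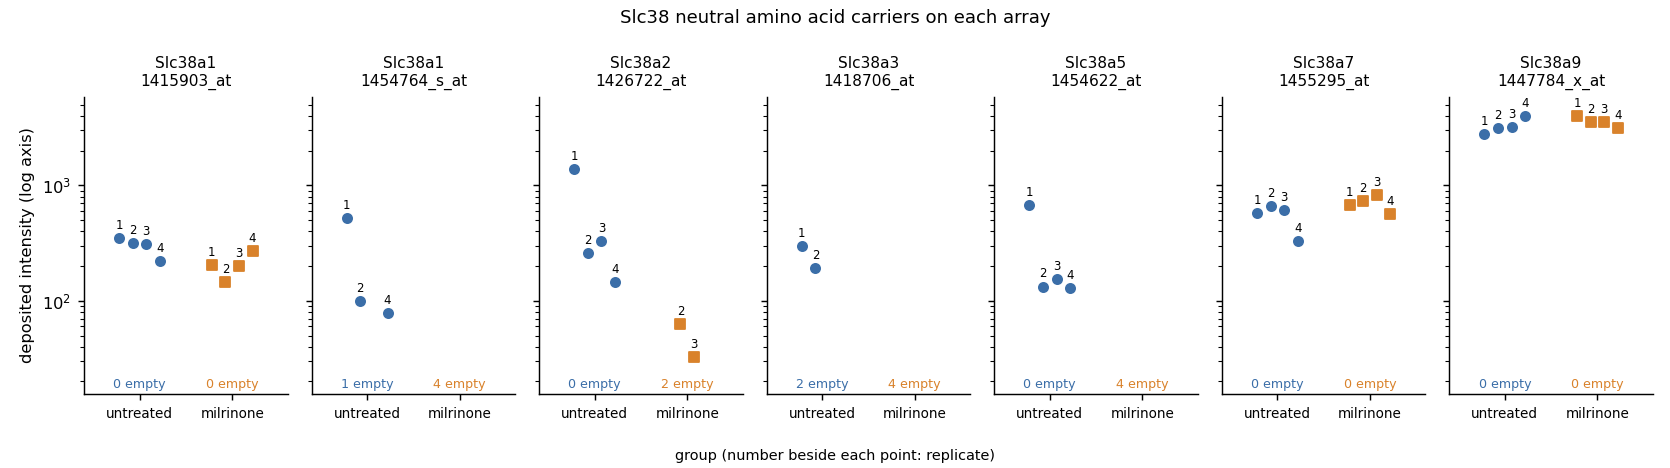
Deposited intensity, on a log axis, of 7 Slc38 probe sets on each untreated (blue circles) and milrinone (orange squares) array, with the replicate number beside each point and the number of empty cells at the foot. Slc38a5 has 4 untreated values between 130 and 682 and 4 empty milrinone cells, while Slc38a9 lies between 2815 and 4023 in both groups.

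The Slc38 genes of lysosomes were listed on all arrays. Slc38a9, which senses lysosomal arginine for the mTORC1 growth pathway, had 2815, 3165, 3238 and 4017 in untreated and 4023, 3542, 3543 and 3125 in milrinone samples with its brightest probe set. The groups overlapped, with a difference of 0.11 (95% interval -0.17 to 0.39, limma adjusted p = 0.760). This probe set has the suffix x_at, which marks probes that may also bind other transcripts. The 5 tested probe sets of Slc38a9 gave differences from -0.09 to 0.32. Slc38a7, a lysosomal glutamine carrier, had 572, 663, 616 and 330 in untreated and 678, 738, 825 and 569 in milrinone samples (difference 0.39, SE 0.22, limma adjusted p = 0.562), with untreated 4 below all others. Without untreated 4 the difference was 0.17. Slc38a10 had 1462, 1000, 598 and 387 in untreated and 661, 529, 587 and 871 in milrinone samples, so its untreated values spread over a wider range than the groups differed. Its difference was -0.23, and 0.08 without untreated 1. Its dimmer probe set gave -0.35 and 0.05. Slc38a6 differed by -0.29 (limma adjusted p = 0.570), or by -0.15 without untreated 1.

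Slc36a1 carries glycine, proline and alanine together with protons and sits largely on lysosomes. It had 170, 204, 150 and 164 on the untreated and 287, 251, 259 and 295 on the milrinone arrays. Every milrinone value was above every untreated value, and no array stood apart. The difference was 0.63 (SE 0.15, 95% interval 0.30 to 0.95, exact permutation p = 0.0286, the smallest that 4 against 4 arrays can give, which any groups without overlap reach). It was the transporter probe set with the smallest limma p (0.00152), but it did not pass over the 16288 probe sets tested (adjusted p = 0.283), and 5.06% of all tested probe sets had milrinone values wholly above the untreated ones. Without untreated 1 the difference was 0.62 (adjusted p = 0.242). The other Slc36 genes were listed on few arrays, Slc36a2 on untreated 2 at 52.9, Slc36a4 on untreated 1 at 58.8, and Slc36a3 on untreated 3 at 89.3 and milrinone 3 at 83.8.

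Among the monocarboxylate carriers Slc16a1, which moves lactate and pyruvate with protons, had 392, 184, 83.3 and 76.2 on the untreated and 35.5, 31.1, 47.2 and 177 on the milrinone arrays. Untreated 1 was highest, milrinone 4 lay with untreated 2, and the groups overlapped. The difference of -1.16 was the largest of all tested transporter probe sets but had a wide interval (-2.35 to 0.02, limma adjusted p = 0.514), and without untreated 1 it was -0.73 (limma adjusted p = 0.690). Slc16a3, the lactate exporter of glycolytic cells, was listed on untreated 1 alone at 68.5. Slc16a7, a pyruvate carrier of high affinity, was listed on 2 arrays of each group, at 79.4 and 80.1 in untreated and 88.5 and 101 in milrinone samples. Slc16a8 was listed on untreated 2 alone at 18.5.

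Among Slc16 genes that carry other substrates, Slc16a10, which moves aromatic amino acids, had 657, 1025, 1392 and 808 in untreated and 968, 1267, 1291 and 1051 in milrinone samples, and its 3 tested probe sets gave differences of 0.22 to 0.28, or 0.08 to 0.12 without untreated 1. Slc16a12, a creatine carrier, had 30.8, 37.5, 71.8 and 78.4 in untreated and 79.2, 114, 104.5 and 59.2 in milrinone samples. Milrinone 4 lay below untreated 3 and 4, so the groups overlapped, and the difference was 0.61 (SE 0.26, limma adjusted p = 0.508), or 0.43 without untreated 1 (limma adjusted p = 0.666). Slc16a13 differed by 0.04. The probe sets of Slc16a9 disagreed. The brighter was listed on untreated 1 and 3 at 352 and 116 and on no milrinone array, and the dimmer on all 8 arrays with a difference of 0.20. Slc16a11 was listed on untreated 4 alone, at 268, Slc16a4 on untreated 1 alone at 12.5, and Slc16a14 on no array.

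**Figure D3:**
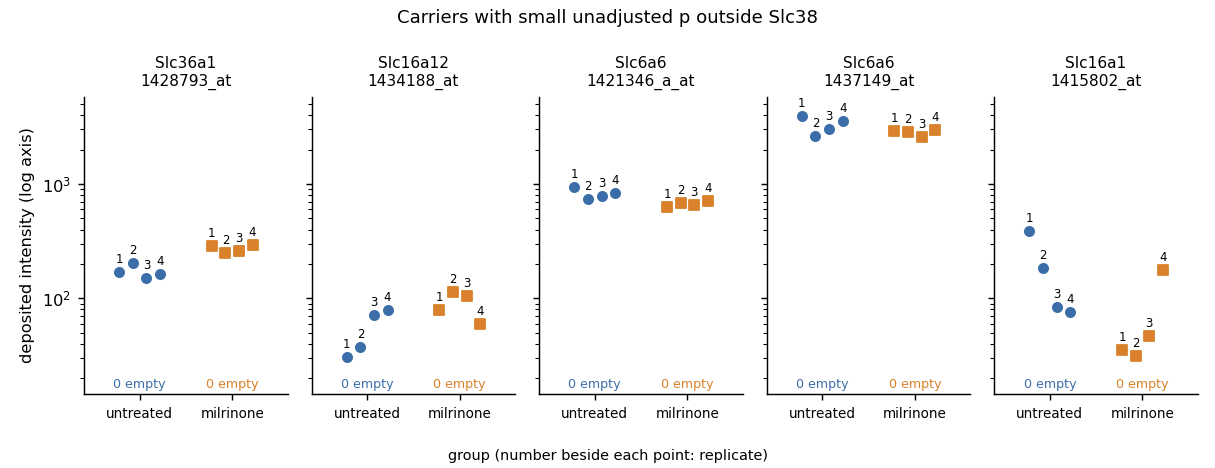
Deposited intensity, on a log axis, of 5 probe sets on each untreated (blue circles) and milrinone (orange squares) array, with the replicate number beside each point. The 4 milrinone values of Slc36a1, 251 to 295, all lie above the untreated values of 150 to 204, whereas those of Slc16a1 overlap.

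Slc6a6, the taurine carrier, had 950, 735, 783 and 842 on the untreated and 630, 677, 659 and 713 on the milrinone arrays with its dimmer tested probe set. Every milrinone value was below every untreated value and the difference was -0.29 (SE 0.13, limma adjusted p = 0.514, exact permutation p = 0.0286). Such groups were found in 2.74% of all tested probe sets. The brighter probe set had 3963, 2648, 3009 and 3523 and 2886, 2861, 2560 and 2979, which overlapped, with a difference of -0.20 (limma adjusted p = 0.591). Slc6a9, the glycine carrier, had 2710, 3275, 3678 and 2320 in untreated and 3457, 3398, 3349 and 3090 in milrinone samples. The milrinone values lay inside the untreated range, and the difference was 0.17 (95% interval -0.14 to 0.48, limma adjusted p = 0.666). Its second probe set, empty on untreated 4 and milrinone 3, differed by 0.41, or by 0.12 without untreated 1.

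Slc6a7, known as the proline carrier of the brain, was listed on all arrays, at 3290, 3681, 3437 and 3637 in untreated and 4606, 3885, 2895 and 2764 in milrinone samples. The milrinone arrays spread on both sides of the untreated ones, and the difference was -0.02 (95% interval -0.36 to 0.32). Slc6a15, a carrier of branched-chain amino acids and proline, differed by 0.23 (limma adjusted p = 0.616) and the serotonin carrier Slc6a4 by 0.19. The creatine carrier Slc6a8 was listed on untreated 1 alone, at 105. Of the 18 Slc6 genes, 7 were listed on no array, among them the GABA carriers Slc6a11 and Slc6a13 and the betaine carrier Slc6a12.

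The heteromeric carriers pair a heavy chain of Slc3 with a light chain of Slc7. Slc3a2, the heavy chain shared by most of them, had 3656, 3431, 3919 and 3101 in untreated and 3367, 3733, 3190 and 3208 in milrinone samples. The groups overlapped closely, with a difference of -0.06 (95% interval -0.29 to 0.16, limma adjusted p = 0.842). Of its light chains, Slc7a5, which brings in large neutral amino acids, had 983, 1133, 702 and 722 in untreated and 578, 608, 1128 and 971 in milrinone samples, a difference of -0.13 with as wide a spread in both groups. Slc7a11, which brings in cystine in exchange for glutamate, had 714, 1028, 1035 and 965 in untreated and 1218, 1103, 1206 and 978 in milrinone samples (difference 0.27, limma adjusted p = 0.561; 0.15 without untreated 1). Slc7a7 differed by 0.19 (limma adjusted p = 0.658).

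The light chains Slc7a6 and Slc7a8 were listed on untreated arrays only. The 2 listed probe sets of Slc7a6 had 170 on untreated 1, and 106 and 29.9 on untreated 1 and 2. Slc7a8 had 147 on untreated 1 and 59.4 on untreated 3. The second heavy chain, Slc3a1, was listed on 3 untreated arrays at 52.5 to 59.1 and on 2 milrinone arrays at 74.0 and 68.2. Its light chain Slc7a9, which carries cystine, was listed on all 8 arrays and differed by -0.14.

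The cationic amino acid carriers, which work without a heavy chain, did not pass. Slc7a1, the common arginine and lysine carrier, had 2387, 2238, 2730 and 1987 in untreated and 2352, 2419, 2433 and 2897 in milrinone samples. Its 2 tested probe sets differed by 0.12 (95% interval -0.16 to 0.39) and by 0.00 (-0.31 to 0.30). The 4 tested probe sets of Slc7a2 disagreed, with differences from -0.12 to 0.43. The highest belonged to a probe set with 177, 228, 315 and 326 in untreated and 328, 445, 347 and 289 in milrinone samples (limma adjusted p = 0.532).

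Among the hexose carriers Slc2a1, the basal glucose carrier of many cells, had 1563, 2777, 2197 and 2941 in untreated and 2567, 1837, 2324 and 2048 in milrinone samples. Untreated 1 was lowest, and the milrinone values lay inside the untreated range. The 3 probe sets of Slc2a1 gave differences from -0.19 to 0.01 with all arrays, and from -0.43 to -0.14 without untreated 1, where the lowest had a limma adjusted p of 0.574. Slc2a12 had 142, 153, 243 and 173 in untreated and 176, 269, 212 and 303 in milrinone samples (difference 0.40, limma adjusted p = 0.543). Slc2a9, which carries urate, differed by 0.05 and the 2 probe sets of Slc2a10 by 0.07 and 0.08. Slc2a13, a carrier of myo-inositol, ran from 88.3 to 377 on 3 untreated and from 68.5 to 358 on 3 milrinone arrays. The insulin-regulated Slc2a4 was listed on untreated 2 alone at 68.2, and Slc2a2 and Slc2a8 on no array. Slc2a3, a glucose carrier of high affinity, was listed on untreated 1 at 118 and on 3 milrinone arrays at 50.3 to 58.7.

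**Figure D4:**
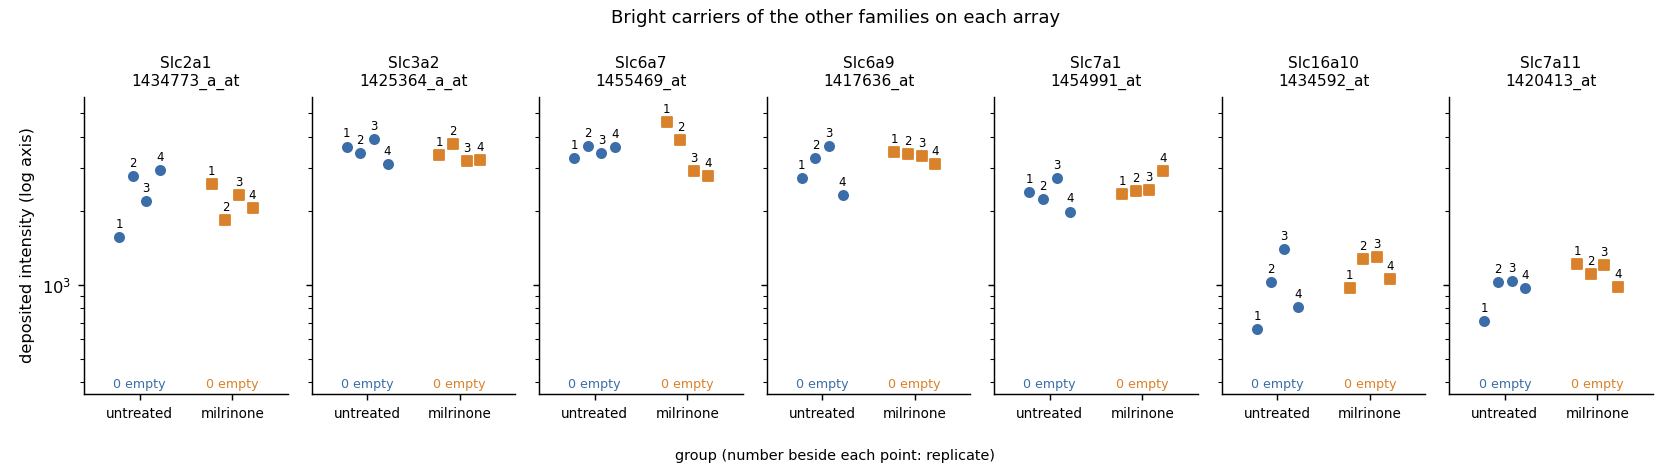
Deposited intensity, on a log axis, of 7 probe sets of Slc2, Slc3, Slc6, Slc7 and Slc16 carriers on each untreated (blue circles) and milrinone (orange squares) array, with the replicate number beside each point. All 7 are listed on every array and their groups overlap, as for Slc3a2 at 3101 to 3919 and 3190 to 3733.

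Of the Slc1 genes none had a probe set that could be tested. Slc1a1, a carrier of glutamate and aspartate, was listed on 2 untreated arrays at 25.8 and 27.1 and on 4 milrinone arrays at 18.2 to 23.6. Slc1a4, a carrier of alanine, serine and cysteine, was listed on untreated 1 and 2 at 120 and 135 and on milrinone 4 at 161, and Slc1a2 on untreated 3 alone at 68.9. Slc1a3, Slc1a5, Slc1a6 and Slc1a7 were listed on no array.

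In all, 44 transporter probe sets of 28 genes were listed on at least 3 arrays in each group and were tested, 50 more were listed on fewer arrays, and 62 had no value. Of the 44, 0 passed (limma, Benjamini-Hochberg adjusted p under 0.05, background 0.117%). At an unadjusted p under 0.05, 2 were lower (4.55%, beside 4.0% of all tested probe sets) and 2 were higher (4.55%, beside 5.62%) in milrinone samples, which is near the background. The median difference of the 44 was 0.08, beside 0.06 for all 16288 tested probe sets, with 26 above and 18 below 0. In 39 of the 44 the 95% interval lay between -1 and 1, and in 13 between -0.5 and 0.5, so for most of them the interval reached beyond 0.5 in size. The groups overlapped in 42 of the 44. Of the others, 1 was wholly lower (2.27%, beside 2.74% of all tested probe sets) and 1 wholly higher (2.27%, beside 5.06%) in milrinone samples. Without untreated 1, 40 of the 44 kept their sign and 31 came closer to 0. The same shares over all tested probe sets are not given, so these counts are not read as particular to the transporters. Without that array the median difference was 0.05, beside 0.03 for all tested probe sets.

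**Figure D5:**
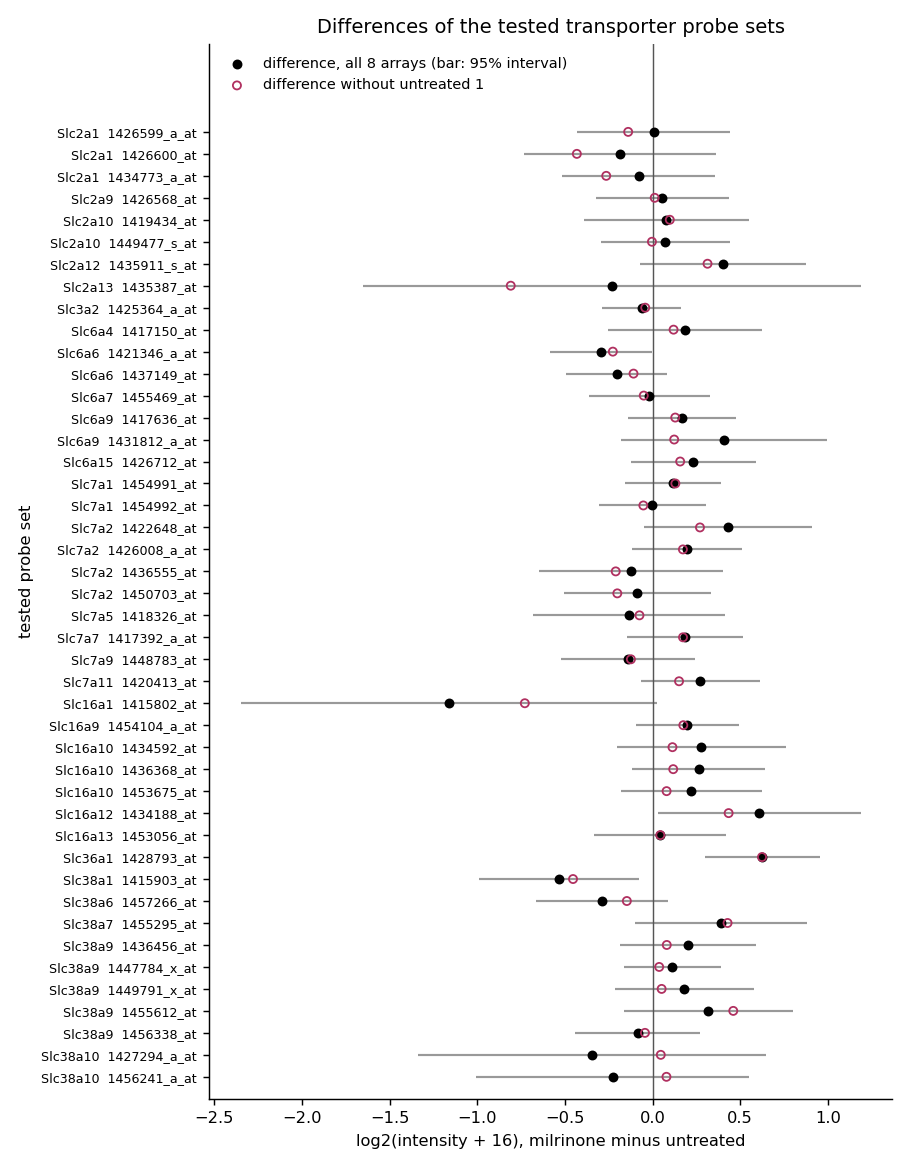
Difference in log2(intensity + 16), milrinone minus untreated, of each of the 44 tested transporter probe sets (filled points) with its 95% interval (bars), and the difference without untreated 1 (open circles). Slc36a1 at 0.63 keeps its place without that array (0.62), while Slc16a1 moves from -1.16 to -0.73.

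Partners and regulators of the carriers were read in the same way from a list of 34 genes on the array. The list also held other carriers of the same substrates, such as Slc43a3 and Slc5a2. Of 39 tested probe sets 0 passed (limma), and the median difference was -0.01. At an unadjusted p under 0.05, 4 of the 39 were lower and 4 higher. Both shares were above those of all tested probe sets, 4.0% and 5.62%, and the list was not tested as a set. The 4 lower ones were probe sets of Sesn1, Nedd4 (2 probe sets) and Lamtor1. The 4 higher ones were probe sets of Rptor, Slc43a3 (difference 0.39), Slc5a2 (0.45) and Lamtor5 (0.30). Basigin (Bsg), the chaperone that brings Slc16a1 to the cell surface, had 995, 687, 686 and 542 in untreated and 533, 587, 603 and 491 in milrinone samples (difference -0.36, limma adjusted p = 0.539; -0.20 without untreated 1). Emb, also on the list, differed by 0.19 and 0.16 with its tested probe sets. The smallest p was that of Rptor, a subunit of mTORC1, with a difference of 0.48 (SE 0.13, limma adjusted p = 0.412). Sesn1, a sestrin that restrains mTORC1, differed by -1.0 (-0.62 without untreated 1) with its brightest probe set, which was empty on untreated 4. Its other tested probe sets differed by -0.23 and -0.10, or by -0.02 and 0.07 without untreated 1. The ubiquitin ligase gene Nedd4 differed by -0.91, -1.07 and -0.51 with its 3 tested probe sets, or by -0.57, -0.61 and -0.32 without untreated 1. Lamtor1, which anchors mTORC1 to lysosomes, differed by -0.44 with its dimmest tested probe set and by -0.07 and -0.08 with its brighter ones. The smallest limma adjusted p of each of the 3 genes ran from 0.460 to 0.472. Sgk1, a kinase that promotes the surface expression of several carriers, had 1443, 259, 244 and 102 in untreated samples and was listed on milrinone 4 alone, at 121.

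Promoter sequence was examined for 2 short motifs, because milrinone acts through cAMP and several of these carriers are known targets of the amino acid response factor ATF4. Windows of 300 bases around the annotated start were found for 57 of the 79 genes, 77 windows in all, from RefSeq on build GRCm38.p6. The half-site of the cAMP response element, TGACG on either strand, was in 18 of the 77 windows (23.4%), beside 20.8% of all 32851 windows of that length. The core of the amino acid response element, TGATGNAA on either strand, was in 5 (6.49%), beside 3.97%. No match of one motif can be a match of the other. Shown are the 250 bases before the start of Slc36a1, Slc38a2 and Slc7a11, with motif matches in capitals. Slc36a1 had the smallest p, and the window of Slc7a11 held the second motif 2 times. The brightest probe set of Slc38a2 was listed on 4 untreated and 2 milrinone arrays. A match is a description of the sequence, and its use in these oocytes was not measured. The windows are chr11:55204090-55204339 on the plus strand, chr15:96699729-96699978 on the minus strand and chr3:50443614-50443863 on the minus strand, in this order.
Slc36a1: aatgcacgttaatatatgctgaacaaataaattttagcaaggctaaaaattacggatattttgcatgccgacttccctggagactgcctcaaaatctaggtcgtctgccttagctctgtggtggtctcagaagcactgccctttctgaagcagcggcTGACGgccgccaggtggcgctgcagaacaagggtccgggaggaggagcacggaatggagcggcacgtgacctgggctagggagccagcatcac
Slc38a2: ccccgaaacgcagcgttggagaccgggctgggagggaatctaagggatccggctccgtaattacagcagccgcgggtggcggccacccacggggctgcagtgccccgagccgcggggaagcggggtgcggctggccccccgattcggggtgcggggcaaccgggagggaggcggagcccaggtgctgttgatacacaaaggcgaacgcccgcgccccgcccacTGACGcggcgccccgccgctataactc
Slc7a11: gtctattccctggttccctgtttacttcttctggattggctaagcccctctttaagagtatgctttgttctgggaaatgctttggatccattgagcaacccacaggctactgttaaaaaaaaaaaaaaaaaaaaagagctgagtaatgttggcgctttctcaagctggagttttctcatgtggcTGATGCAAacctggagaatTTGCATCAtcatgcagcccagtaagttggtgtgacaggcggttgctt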

How the data were processed

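The values are probe set intensities on a linear scale that the authors deposited, 1 column per array for 8 arrays. For the software, the scaling and the rule behind empty cells, nothing is stated in the sources used here. Gene names come from the platform annotation, and all 156 transporter probe sets kept their symbol when matched by Entrez identifier to RefSeq. Intensities were analysed as log2(intensity + 16) with the deposited scaling, a scale on which differences of dim probe sets come out too small. Empty cells stayed empty. The fit took the 16288 probe sets that each group listed on 3 or 4 arrays. It used limma 3.58.1 (lmFit, then eBayes with its trend option, under R 4.3.3), two-sided, adjusted by Benjamini-Hochberg, with a threshold of 0.05, and the transporter results were read from that fit. Exact permutation tests are two-sided. Precision is limited by having 4 arrays a group, and the 44 tested transporter differences had a median standard error of 0.18. The fit was checked on simulated data. The transporters, the gene lists and the rules were chosen with earlier results of these data known. Named were the 12 tested probe sets with the smallest p, those listed on all arrays of one group and at most 1 of the other, up to 4 bright genes per family, a list of well-known carriers, and 4 partners. Other genes with values, such as Bsg, Sgk1, Slc6a4 and Slc6a8, were picked after their values were seen. Same-numbered arrays of both groups had correlations of their deviations from the group mean of -0.266 to 0.033, and differently numbered arrays of -0.178 to 0.277. Such deviations cancel within a group, so these values cannot decide whether the numbers pair the samples. The labels do not say, and the main fit used no replicate block. Alternatives changed the pseudocount, the listing filter, the normalization, the variance model, the block and the arrays used. Plots were drawn with matplotlib 3.10.9 under Python 3.11.15.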

Additional observations from a re-analysis of the deposited data

Results flagged for a closer look

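In 61 groups of 4 arrays, 1 array lay far from the other 3 in 4 cases, where chance picks out about 1 in 20 groups, or 3.05 (in parentheses, the gap from that array to the nearest other over the range of all 4, on the log2 scale). Untreated 1 was highest for Slc38a5 (0.896), at 682 against 130 to 156. It was also highest for the ubiquitin ligase gene Nedd4 (0.931), whose milrinone 3 was lowest (0.833). Milrinone 4 was highest for Slc7a1 (0.839), at 2897 against 2352 to 2433. No explanation of these values was tested.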

How the results depend on the processing

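No transporter probe set passed an adjusted p of 0.05 under any of the 18 alternatives run, and the smallest adjusted p of a named probe set was 0.0628, for Slc36a1 with array weights. Of all 16288 tested probe sets 19 passed in the main fit, 9 without milrinone 3 and 106 with array weights, the fewest and the most. The difference of Slc36a1 ran from 0.38 with quantile normalization to 0.84 with centring on ribosomal proteins. The counts at an unadjusted p under 0.05 that follow have no share of all tested probe sets beside them. They are thus not read as a result about the transporters. At an unadjusted p under 0.05 the number lower in milrinone was 3 with quantile normalization, with a pseudocount of 1 and with probe sets listed on at least 2 arrays a group. It was 1 with probe sets listed on all 8 arrays, with centring on ribosomal proteins and with array weights. With the replicate block, a pairing that the labels do not give, it was 0. When single arrays were left out it was 0 to 2 (1 without untreated 1 or milrinone 1, 0 without milrinone 2 or milrinone 3). The number higher was 0 with quantile normalization, 1 with centring on the median, 6 with centring on ribosomal proteins, 4 with array weights and 1 with the replicate block, and 1 to 5 without single arrays (1 without untreated 2, milrinone 2 or milrinone 3, 5 without untreated 3). The median difference of the transporters turned to -0.16 with quantile normalization, where that of all tested probe sets was -0.13, and moved to 0.29 with centring on ribosomal proteins, where it was 0.28. With array weights it was 0.0014, and it ran from 0.04 to 0.12 without single arrays. The surplus of listed transporter probe sets on untreated arrays, 8.5 per array, was 5.75 without untreated 1, up to 10.4 without single other arrays, 6.0 counted by genes and 4.25 over values of at least 100, against a replicate SD of 4.57.

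Of 537 comparisons of 30 named probe sets with an alternative, 509 kept their direction. Centring on ribosomal proteins turned the brighter Slc6a6 probe set to 0.0084, Slc2a1 to 0.13, Slc2a13 to 0.035, Slc3a2 to 0.15, Slc6a7 to 0.19 and Slc7a5 to 0.078. The dimmer tested probe set of Slc6a6 kept its sign there, at -0.081. Quantile normalization turned Slc2a9 to -0.19, Slc7a1 to -0.038, the brightest Slc7a2 probe set to -0.049, Slc16a13 to -0.18 and Slc38a9 to -0.031. The Slc7a2 probe set with the difference of 0.43 kept its sign there, at 0.19. Array weights turned Slc2a9 to -0.035, Slc6a9 to -0.014, Slc7a5 to 0.078 and Slc16a13 to -0.042. Without single arrays the differences of those that turned ran from -0.26 to 0.037 for Slc2a1, from -0.052 to 0.15 for Slc2a9, from -0.81 to 0.39 for Slc2a13, from -0.16 to 0.088 for Slc6a7, from -0.30 to 0.011 for Slc7a5, from -0.095 to 0.14 for Slc16a13 and from -0.55 to 0.079 for Slc38a10, which turned without untreated 1. The cause was not tested.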

Other observations

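The 3 transporter genes with values on milrinone arrays only were dim. The cationic amino acid carrier Slc7a3 was listed on milrinone 1 and 4 at 26.2 and 28.9, the glycine carrier Slc6a5 on milrinone 2 at 57.1 and the neutral amino acid carrier Slc6a19 on milrinone 4 at 36.9. Slc6a14, a carrier of neutral and cationic amino acids, was listed on all 4 untreated arrays at 5.8 to 8.9 with its dimmer probe set and on milrinone 3 and 4 at 7.0 and 12.4, among the lowest values of the table. The noradrenaline carrier Slc6a2 was listed by its brightest probe set on 2 untreated and 3 milrinone arrays, at 95.2 and 112 and at 111 to 137, and by 2 dimmer ones on untreated 3 at 31.2 and on untreated 4 at 28.3. The listing of the gene thus covered all 4 untreated arrays. Slc6a14 was also listed on milrinone 4 at 38.5 by another probe set. The dopamine carrier Slc6a3 was listed on untreated 4 alone at 47.0.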
